A study of Mus musculus with 10 samples.

Results

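Stromal macrophages of the mouse mammary gland were compared with CD11b+ dendritic cells of the same tissue across all genes, including those that both populations expressed at high levels. Both came freshly sorted out of the gland of virgin adult C57BL/6 females, and each was sequenced as 2 biological replicates, so that 4 of the 10 libraries of the series carry the comparison. No allele, transgene or treatment is named for either group. The sources used here do not give the markers of the sort beyond the population names, nor the number of mice behind a library. The other 6 libraries, of ductal macrophages and of CD11b-CD103+ and CD11b-CD103- dendritic cells, entered the fit to share the estimate of spread.

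Tissue macrophages are long-lived or monocyte-renewed phagocytes that clear dying cells, recycle iron and lipid and supply growth factors to their surroundings. Conventional dendritic cells take up antigen, process it onto MHC molecules, and carry it along the lymphatics to lymph nodes, a journey that needs the chemokine receptor CCR7. CD11b, an integrin chain encoded by Itgam, is carried by many macrophages and monocytes as well as by the dendritic cell type called cDC2, so that the marker does not by itself divide these lineages.

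Total counts were 23093742 and 17998986 in the stromal macrophages and 15849123 and 5745085 in the CD11b+ dendritic cells (replicates 1 and 2 here and wherever a pair of values is given), within a range of 5636092 to 23093742 over the series. Mitochondrial genes took 24.8% and 23.1% of counts in the stromal macrophages, against 3.22% and 1.88% in the CD11b+ dendritic cells and 0.631% to 6.29% in the other 6 libraries, and all 15 tested mitochondrial genes were called higher in the stromal macrophages. Markers of other cell types also differed. The 6 adipocyte markers, all called higher, summed to 427 and 457 CPM in the stromal macrophages and to 5.78 and 14.7 CPM in the CD11b+ dendritic cells, and 5 of 7 fibroblast markers were called higher, with sums of 1178 and 1607 CPM in the stromal macrophages and 292 and 525 CPM in the CD11b+ dendritic cells. Of 5 tested mast cell markers 4 were called higher in the stromal macrophages (184 and 157 CPM, against 19.1 and 38.4 CPM in the CD11b+ dendritic cells). Kit, the marker not called, is also on the dendritic cell list used below. It made up 20.6 and 98.7 CPM of the sums of the stromal macrophages and 19 and 37.2 CPM of those of the CD11b+ dendritic cells. Luminal epithelial markers overlapped (1060 and 2794 CPM in the stromal macrophages, 787 and 1823 CPM in the CD11b+ dendritic cells). B cell markers, 2 higher and 1 lower of 7 tested, summed to 1044 and 793 CPM in the stromal macrophages, nearly all of it Ighm, and to 89.5 and 82.4 CPM in the CD11b+ dendritic cells. T cell and natural killer cell markers summed to at most 13.2 CPM in each of the 4 libraries. With mitochondrial genes left out of the fit, 1897 genes were called higher and 2206 lower, close to the counts given next. The part of the other cells in the results was not tested.

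Of 15681 genes tested, 4097 (26.1%) were called at an adjusted p under 0.05 (edgeR quasi-likelihood F test, Benjamini-Hochberg). The stromal macrophages were higher in 1825 of them (11.6% of the tested genes) and lower in 2272 (14.5%). A difference of at least 4-fold was called for 891 genes higher (5.68%) and 992 lower (6.33%) in the stromal macrophages. Among the 10 pairs of populations of the series the number of calls ran between 5 and 5542. Without replicate 1 of the CD11b+ dendritic cells the counts were 819 higher and 1235 lower, and without its replicate 2, the library of 5745085 counts, they were 849 and 1361. Fold changes below are log2 values of stromal macrophages over CD11b+ dendritic cells with their standard error, and levels are CPM (counts scaled to 1000000) on the scale of the normalized library totals. In these bulk libraries fewer cells of a type and less RNA per cell cannot be told apart.

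**Figure D1:**
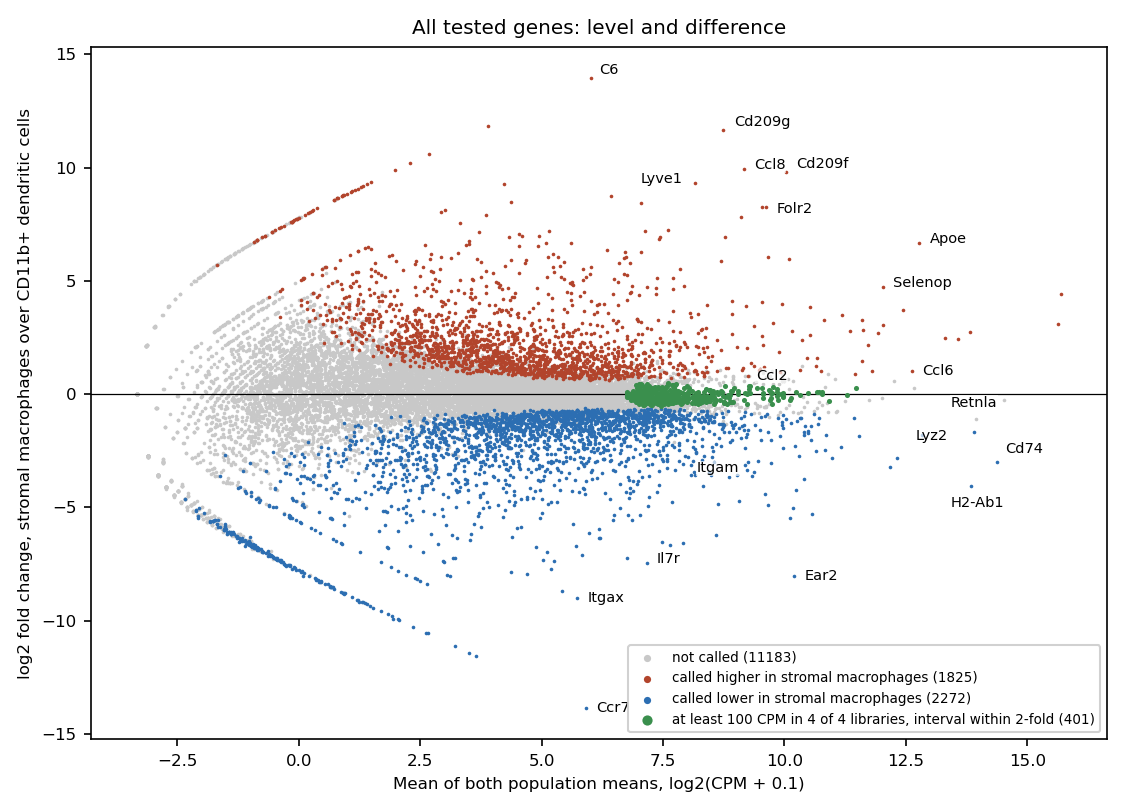
Each point is 1 of the 15681 tested genes, placed by its level in both populations (x axis, log2 of the mean CPM plus 0.1) and by its log2 fold change of stromal macrophages over CD11b+ dendritic cells (y axis), with 1825 genes called higher in red, 2272 called lower in blue and 401 high genes of like level in green. C6 and Ccr7 lie at the outer edges because one population had no count, so their height depends on the prior count of the fit, and the green points run along the line of no difference.

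Both populations had the same gene at the top of their nuclear protein-coding transcripts. Retnla (gene ID 57262, chromosome 16, 48842609 to 48844461, GRCm38), which encodes RELMα, a secreted protein of type 2 immune responses, ranked first per kilobase in both. It stood at 12386 and 7475 CPM in stromal macrophages, against 18695 and 24022 CPM in CD11b+ dendritic cells. In the ductal macrophages and the CD11b-CD103+ and CD11b-CD103- dendritic cells its means were 10.8, 13.2 and 7.6 CPM. The difference between the 2 populations did not pass the test (log2 fold change -1.10 ± 0.47, adjusted p = 0.108), although the libraries did not overlap and DESeq2 (adjusted p = 0.0243) and limma voom (adjusted p = 0.0455) called it lower in the stromal macrophages. With 2 libraries a group, 32.3% of all tested genes were lower and 30.6% higher in the stromal macrophages without overlap. The lists of the 100 genes of highest RPKM (CPM per kilobase of gene model) in each population, mitochondrial genes included, shared 51 genes. That is 51% of each list. Of the shared genes 11 were called higher and 14 lower in the stromal macrophages, and 10 were alike by the interval rule given next. All 15 mitochondrial genes were called higher, and how many of the shared genes they make up was not counted.

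Because a p that misses the threshold does not show that levels are alike, genes were called alike where all 4 libraries had at least 100 CPM and the 95% interval of the log2 fold change lay within -1 and 1. Of 1023 genes that reached 100 CPM in the 4 libraries (6.52% of those tested), 401 were alike (39.2% of the 1023 and 2.56% of the tested genes), 89 were called higher (8.7%) and 208 lower (20.3%) in the stromal macrophages, and 325 were neither called nor alike. Per kilobase, the highest of the alike genes were Ifitm3, which encodes a membrane protein that restricts virus entry, and Cst3, which encodes the protease inhibitor cystatin C. Ifitm3 had 1760.5 and 1674 CPM in stromal macrophages, against 1394 and 1857 CPM in CD11b+ dendritic cells (log2 fold change 0.08 ± 0.32, interval -0.62 to 0.78). Cst3 had 2174 and 1222 CPM in stromal macrophages, against 1363 and 1787 CPM in CD11b+ dendritic cells (interval -0.76 to 0.98). For both genes the values of the populations overlapped. Others of the 15 highest were Junb, an AP-1 subunit, Nfkbia, the inhibitor of NF-κB, Ctsd, a lysosomal aspartic protease, Arhgdib, and the housekeeping genes Eif1 and Eef1a1. Ubb and its copy Ubb-ps were among them too, but reads of near-identical copies may be divided between them. Leaving out 1 library widens the intervals, and the alike genes then numbered 234 (without CD11b+ dendritic cells replicate 1), 246 (without replicate 2), 260 (without stromal macrophages replicate 1) and 280 (without replicate 2).

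Of the 401 alike genes, 243 also had at least 100 CPM in each of the 6 other libraries. A smaller set was high in this pair of populations and lower in each of the others. Among the 1023 high genes, 21 had means in both populations at least 4-fold above the mean of each of the 3 others, and the 2 alike genes in that set were Ifitm3 and Ccl2. Ifitm3 was still at 132, 362 and 321 CPM in the ductal macrophages, CD11b-CD103+ and CD11b-CD103- dendritic cells. Ccl2, the monocyte attractant MCP-1, had 1059 and 713 CPM in stromal macrophages, against 948 and 949 CPM in CD11b+ dendritic cells (interval -0.75 to 0.55), and 18, 26.4 and 22.6 CPM in those 3 populations. Ccl6, another attractant of myeloid cells, had 7249 and 6931 CPM in stromal macrophages, against 6066 and 5648 CPM in CD11b+ dendritic cells, and 205, 194 and 207 CPM in those 3 populations. Its interval (-0.53 to 1.08) ran just past 2-fold. Mrc1, the mannose receptor CD206, stood at 1190.4 and 777 CPM in the stromal macrophages and 681 and 495 CPM in the CD11b+ dendritic cells, and at 52, 1.96 and 2.12 CPM in the other 3. Pltp, a lipid transfer protein, had 1608 and 976 CPM in stromal macrophages, against 1340.4 and 1442 CPM in CD11b+ dendritic cells, with the values of the CD11b+ dendritic cells inside the range of the stromal macrophages. This set was drawn up after the values were seen. Of the 21, 4 were called higher in the stromal macrophages (Ccl7, Clec10a, F13a1 and Ifi27l2a) and 6 lower (Capg, Cd209a, Dok2, Ecm1, Fcrls and Itgam).

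**Figure D2:**
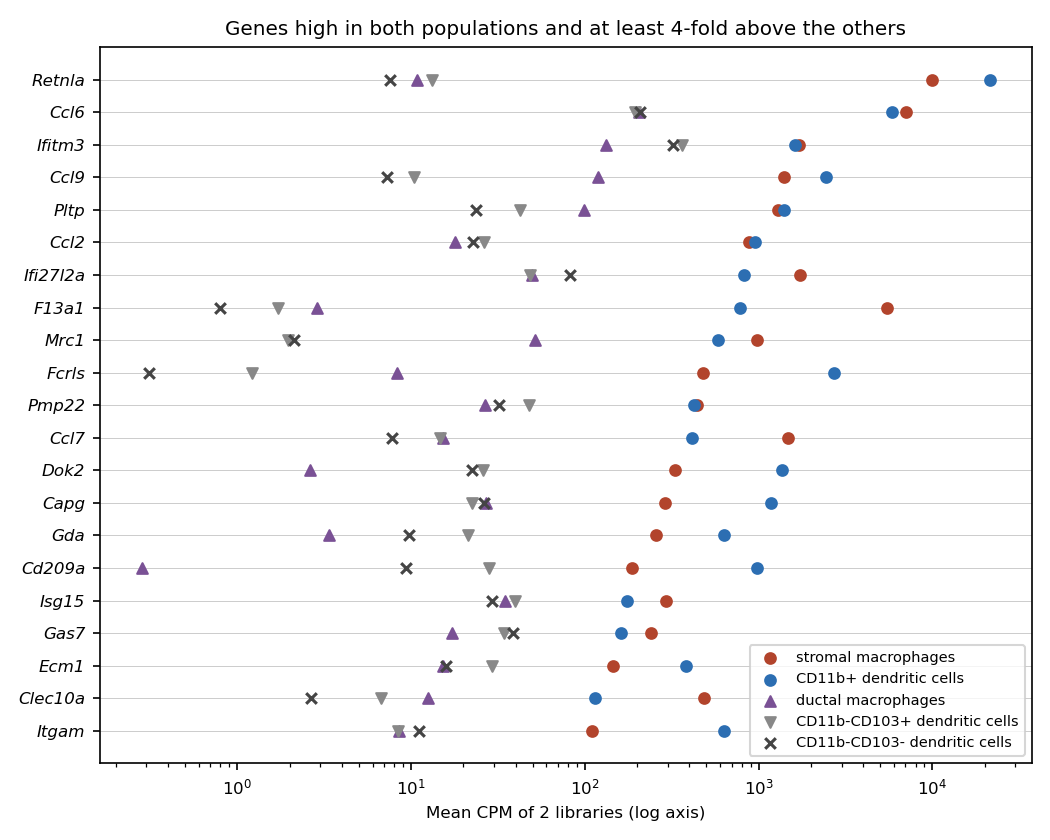
Mean CPM (log axis, 2 libraries per population) of the 21 genes with at least 100 CPM in all 4 libraries of stromal macrophages and CD11b+ dendritic cells and at least 4-fold above each other population, sorted by the lower mean of the pair. The circles of both populations lie together at the right for Ifitm3 and Ccl2 and lie apart for Cd209a and Fcrls, with the other populations to the left of both.

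Genes that define macrophages were found in both populations. Of 20 macrophage core genes 9 were called higher (11.6% of all genes), 3 lower (14.5% of all genes, a like share) and 8 did not pass. Their median log2 fold change was 0.77 against 0.03 over all tested genes. Adgre1, which encodes the macrophage marker F4/80, was alike, with 386 and 231 CPM in stromal macrophages, against 331 and 253 CPM in CD11b+ dendritic cells (interval -0.79 to 0.94). Fcgr3, a low-affinity Fc receptor, was alike as well (724 and 529 CPM in stromal macrophages, against 601 and 594 CPM in CD11b+ dendritic cells). Csf1r, which encodes the CSF1 receptor that macrophages need to survive, had 614 and 359 CPM in stromal macrophages, against 551 and 566 CPM in CD11b+ dendritic cells, and did not pass the test (adjusted p = 0.78). All 3 genes were far lower in the CD11b-CD103+ and CD11b-CD103- dendritic cells, where Adgre1 averaged 5.02 and 2.92 CPM.

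What set the stromal macrophages apart from the CD11b+ dendritic cells within the macrophage list was Fcgr1, the C1q genes, Aif1 and Maf. Fcgr1, the high-affinity receptor CD64 used to tell macrophages from dendritic cells, stood at 131 and 123 CPM in stromal macrophages, against 2.54 and 2.69 CPM in CD11b+ dendritic cells (log2 fold change 5.61 ± 0.49, adjusted p = 3.06e-05). C1qa, a subunit of the first complement component, had 1874 and 1329 CPM in stromal macrophages, against 15.1 and 34.1 CPM in CD11b+ dendritic cells (log2 fold change 6.05 ± 0.56). Aif1, the actin-binding protein IBA1, had 333 and 296 CPM in stromal macrophages, against 11 and 13.3 CPM in CD11b+ dendritic cells (log2 fold change 4.70 ± 0.31). Maf, a transcription factor of resident macrophages, had 179 and 127 CPM in stromal macrophages, against 12.2 and 13.6 CPM in CD11b+ dendritic cells (log2 fold change 3.57 ± 0.38). The groups did not overlap for any of these. Aif1 and Maf did not divide macrophages from dendritic cells over the series. Aif1 averaged 163 and 165 CPM in the CD11b-CD103+ and CD11b-CD103- dendritic cells, and Maf averaged 6.72 CPM in the ductal macrophages. Fcgr1 and C1qa averaged 128 and 4103 CPM in the ductal macrophages and at most 3.69 CPM in the CD11b- dendritic cells. Mertk, a receptor for dying cells, was called at 51.2 and 25.4 CPM in stromal macrophages against 5.29 and 10.9 CPM in CD11b+ dendritic cells, but not without CD11b+ dendritic cells replicate 1 (adjusted p = 0.165) or stromal macrophages replicate 1 (0.0871). The 3 genes called lower were Lyz2 (lysozyme), Cd14 (a lipopolysaccharide co-receptor) and Tyrobp (a signalling adaptor). Lyz2 had 9405 and 5286 CPM in stromal macrophages, against 22099 and 24012 CPM in CD11b+ dendritic cells (log2 fold change -1.65 ± 0.46). None of the 3 was called without CD11b+ dendritic cells replicate 1 (adjusted p = 0.0741 for Lyz2, 0.0545 for Cd14 and 0.132 for Tyrobp), and Lyz2 and Tyrobp were also lost without replicate 2 of either population.

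Dendritic cell core genes went the other way. Of 12 tested, 11 were called lower in the stromal macrophages (14.5% of all genes) and Kit did not pass, with a median log2 fold change of -3.15. Itgax, which encodes the integrin chain CD11c, a defining dendritic cell marker (gene ID 16411, chromosome 7, 128129526 to 128150657, GRCm38), had 0.166 and 0.231 CPM in stromal macrophages, against 134 and 77.6 CPM in CD11b+ dendritic cells (log2 fold change -9.01 ± 0.48, adjusted p = 4.41e-06). Ccr7 (gene ID 12775, chromosome 11, 99144199 to 99155077, GRCm38) had 0 and 0 CPM in stromal macrophages, against 147 and 92.8 CPM in CD11b+ dendritic cells, which puts it at least 1559-fold lower against a floor of 3 counts over both libraries, a bound that covers counting error alone. Dpp4, the peptidase CD26 of conventional dendritic cells, had 14.2 and 10.5 CPM in stromal macrophages, against 117 and 59.96 CPM in CD11b+ dendritic cells. Cd24a, a surface sialoglycoprotein, had 64 and 108 CPM in stromal macrophages, against 594 and 541 CPM in CD11b+ dendritic cells, and Runx3, a transcription factor, had 2.15 and 3.69 CPM in stromal macrophages, against 54.5 and 48.1 CPM in CD11b+ dendritic cells. For none of these did the libraries of the populations overlap. Means in the ductal macrophages were 729 CPM for Itgax, 227 CPM for Runx3, 143 CPM for Dpp4, 82.2 CPM for Ccr7 and 17.5 CPM for Cd24a. These genes thus did not all separate macrophages from dendritic cells in the series. Leaving out CD11b+ dendritic cells replicate 1 gave log2 fold changes of -0.32 for Zbtb46, -1.34 for Id2 and -0.84 for Relb, whose calls were lost. Zbtb46 was also not called by limma voom (adjusted p = 0.0618) or, by edgeR, in the 4 libraries alone (0.16). With counts thinned to the smallest library edgeR called neither Zbtb46 (adjusted p = 0.264) nor Relb (0.0529). Other settings lost Zbtb46 too.

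The label of the CD11b+ dendritic cells was read against its own defining genes. Itgam (gene ID 16409, chromosome 7, 128062640 to 128118491, GRCm38) stood at 117 and 102 CPM in stromal macrophages, against 701 and 556 CPM in CD11b+ dendritic cells, and at 8.51, 8.37 and 11.1 CPM in the ductal macrophages, CD11b-CD103+ and CD11b-CD103- dendritic cells. Flt3, the growth factor receptor of the dendritic cell lineage, had 0.442 and 0 CPM in stromal macrophages, against 16.8 and 18.1 CPM in CD11b+ dendritic cells, while its means were 417 and 379 CPM in the CD11b-CD103+ and CD11b-CD103- dendritic cells. Zbtb46, a transcription factor of conventional dendritic cells, had 7.62 and 6.75 CPM in stromal macrophages, against 19.3 and 8.98 CPM in CD11b+ dendritic cells, and means of 58.4 and 68.6 CPM in the CD11b-CD103+ and CD11b-CD103- dendritic cells. Both genes were therefore detected in the CD11b+ dendritic cells at lower levels than in the CD11b- dendritic cells. So were Kit, Dpp4, Bcl11a, Ccr7, Runx3 and Spib by their means. Cd24a (mean of 567 CPM, against 468 and 517 CPM), Itgax (106 CPM, against 154 and 104 CPM), Id2 and Relb were not below both CD11b- populations. Of the macrophage genes, Adgre1 was at the level of the stromal macrophages, whereas Fcgr1, Aif1 and Maf, given above, were far below it. Among all 20 macrophage core genes, 9 were called lower in the CD11b+ dendritic cells than in the stromal macrophages. Another 3 (Lyz2, Cd14 and Tyrobp) were called higher in the CD11b+ dendritic cells, and 8 did not pass.

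Of 18 genes that mark cDC2, 1 was called higher (11.6% of all genes), 5 lower (14.5%) and 12 did not pass. The higher count was not above the share over all genes. The median log2 fold change was -0.60. Cd209a, the mouse gene of the DC-SIGN family used to mark cDC2 and monocyte-derived dendritic cells, had 241 and 132 CPM in stromal macrophages, against 1198 and 763 CPM in CD11b+ dendritic cells (log2 fold change -2.39 ± 0.40, adjusted p = 0.00149). Notch2, whose protein is needed by splenic cDC2, had 39.4 and 42.4 CPM in stromal macrophages, against 124 and 112 CPM in CD11b+ dendritic cells. Clec10a, a galactose-type lectin, was called in the other direction, with 583 and 381 CPM in stromal macrophages, against 119.7 and 111 CPM in CD11b+ dendritic cells (log2 fold change 2.06 ± 0.26, adjusted p = 0.000236). Its close paralog Mgl2, from which reads may not be fully separable, had 762 and 611 CPM in stromal macrophages, against 448 and 464 CPM in CD11b+ dendritic cells, and did not pass (adjusted p = 0.126). Klf4 was alike (311 and 188 CPM in stromal macrophages, against 289.6 and 268 CPM in CD11b+ dendritic cells). Itgam, given above, was another lower member, and the last ones, Cd7 and Tbx21, had no count in the stromal macrophages and were at least 29.4-fold and 22.3-fold lower. Tbx21 was not called without CD11b+ dendritic cells replicate 1 (adjusted p = 0.0523).

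**Figure D3:**
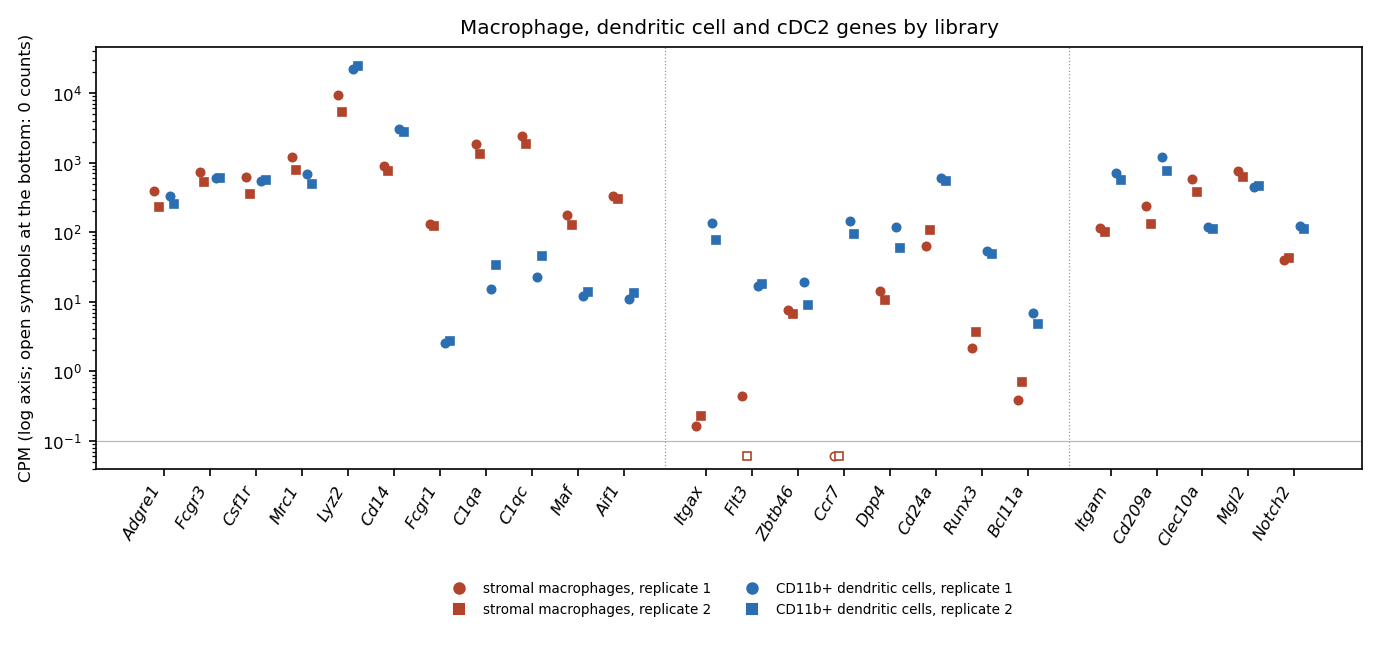
CPM per library (log axis, open symbols for 0 counts) of macrophage core genes (left), dendritic cell core genes (middle) and cDC2 genes (right), with stromal macrophages in red left of CD11b+ dendritic cells in blue. Adgre1, Fcgr3 and Csf1r overlap between the populations, Fcgr1, C1qa, C1qc, Maf and Aif1 are higher in the stromal macrophages, and the dendritic cell genes shown are lower.

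Of 14 tested monocyte genes, 6 were called lower (14.5% of all genes) and 1 higher (11.6%), and the same shares apply to each list that follows. Ccr2, the receptor through which monocytes follow CCL2, had 145 and 76 CPM in stromal macrophages, against 1407 and 1014 CPM in CD11b+ dendritic cells (log2 fold change -3.45 ± 0.42, adjusted p = 0.000202). Fn1, the matrix protein fibronectin, had 31.5 and 67.4 CPM in stromal macrophages, against 2305 and 2008 CPM in CD11b+ dendritic cells (log2 fold change -5.45 ± 0.63, adjusted p = 0.000162). Ly6c2, the surface protein of classical monocytes, was at 2.1 and 3.35 CPM in stromal macrophages and 2.41 and 1.97 CPM in CD11b+ dendritic cells, low in both. Plac8, called higher, had 215 and 275 CPM in stromal macrophages, against 11.6 and 12.2 CPM in CD11b+ dendritic cells. Of 12 genes of mature dendritic cells 7 were called lower and 1, Marcksl1, higher. Ccl22 and Samsn1 were among the lower ones, whereas Fscn1, an actin bundler of migrating dendritic cells, had 16.7 and 22.6 CPM in stromal macrophages, against 18.6 and 16.3 CPM in CD11b+ dendritic cells, and did not pass (adjusted p = 0.867). Of 12 cDC1 genes 3 were called higher and 7 lower, or 4 without CD11b+ dendritic cells replicate 1. The cDC1 genes Xcr1 and Clec9a were at most 7.63 CPM in each library of both populations, and their means in the ductal macrophages, CD11b-CD103+ and CD11b-CD103- dendritic cells were 6.43, 300.2 and 242 CPM for Xcr1 and 9.6, 233 and 177 CPM for Clec9a.

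Genes of perivascular, LYVE1-bearing macrophages were higher in the stromal macrophages almost throughout. Of 24, 22 were called higher in the stromal macrophages, none lower, and Retnla and Mrc1 did not pass, with a median log2 fold change of 5.31. Members of this list, like those of the others, were chosen with earlier results of these data known. The count therefore describes the list and is not an independent test of it. Lyve1, a hyaluronan receptor (gene ID 114332, chromosome 7, 110850607 to 110862953, GRCm38), had 537 and 604 CPM in stromal macrophages, against 0.963 and 0.718 CPM in CD11b+ dendritic cells (log2 fold change 9.32 ± 0.66, adjusted p = 9.68e-06). Folr2, the folate receptor β, had 2005 and 1150.5 CPM in stromal macrophages, against 2.96 and 7.9 CPM in CD11b+ dendritic cells (log2 fold change 8.28 ± 0.57). Cbr2, a carbonyl reductase, had 1569.7 and 1398 CPM in stromal macrophages, against 3.37 and 6.64 CPM in CD11b+ dendritic cells (log2 fold change 8.28 ± 0.52). Each of these genes was at least 537 CPM in both stromal macrophage libraries and below 10 CPM in both libraries of the CD11b+ dendritic cells. Timd4, a phosphatidylserine receptor, had 208 and 197 CPM in stromal macrophages, against 6.4 and 3.41 CPM in CD11b+ dendritic cells. Cd163, the haemoglobin scavenger receptor, had 656 and 532 CPM in stromal macrophages, against 91.7 and 65.3 CPM in CD11b+ dendritic cells. F13a1, the clotting factor XIII A chain, had 6258 and 4756 CPM in stromal macrophages, against 883 and 676 CPM in CD11b+ dendritic cells (log2 fold change 2.82 ± 0.56), a difference not called without CD11b+ dendritic cells replicate 2 (adjusted p = 0.0549). Cd163 and F13a1 were thus measured in the CD11b+ dendritic cells as well, above their means in the 3 other populations, which were at most 6.997 CPM for Cd163 and 2.86 CPM for F13a1. Without CD11b+ dendritic cells replicate 2 the list had 21 calls, and 22 without any other library.

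The Cd209 cluster on chromosome 8 held members of opposite direction. Cd209f (gene ID 69142, chromosome 8, 4102784 to 4105838) had 2284 and 1873 CPM in stromal macrophages, against 2.34 and 2.33 CPM in CD11b+ dendritic cells (log2 fold change 9.79 ± 0.39), and Cd209g (gene ID 70192, chromosome 8, 4134246 to 4137707) had 981 and 733 CPM in stromal macrophages, against 0.138 and 0.539 CPM in CD11b+ dendritic cells (log2 fold change 11.66 ± 0.80). Cd209b had 401 and 289.6 CPM in stromal macrophages, against 3.51 and 1.8 CPM in CD11b+ dendritic cells, and Cd209d had 307 and 231 CPM in stromal macrophages, against 39.4 and 33.2 CPM in CD11b+ dendritic cells. These 4 were higher in the stromal macrophages, whereas Cd209a (gene ID 170786, chromosome 8, 3743395 to 3748984) was lower. In the list of 23 C-type lectin genes, 9 were higher, among them also Cd209e, and 6 were lower. The genes are paralogs, and the sources used here do not say how reads that match more than 1 of them were counted.

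MHC class II genes were lower in the stromal macrophages with 1 exception. Of 13 genes of the class II pathway 12 were called lower in the stromal macrophages and 1 higher, with a median log2 fold change of -3.14, and leaving out any 1 of the 4 libraries did not change these counts. H2-Ab1, the β chain of I-A (gene ID 14961, chromosome 17, 34263227 to 34269418, GRCm38), had 2239 and 1132 CPM in stromal macrophages, against 26219 and 29276 CPM in CD11b+ dendritic cells (log2 fold change -4.04 ± 0.51, adjusted p = 0.000264). Its partner H2-Aa had 1595 and 933 CPM in stromal macrophages, against 9244 and 8544 CPM in CD11b+ dendritic cells (log2 fold change -2.81 ± 0.41), and H2-Eb1 had 1175 and 632 CPM in stromal macrophages, against 8233 and 8331 CPM in CD11b+ dendritic cells (log2 fold change -3.20 ± 0.43). Cd74, the invariant chain that escorts class II molecules, had 6302 and 3288 CPM in stromal macrophages, against 38009 and 37643 CPM in CD11b+ dendritic cells (log2 fold change -2.98 ± 0.50). Class II transcripts were thus abundant in stromal macrophages too. The peptide-loading subunit H2-DMb2 had the widest gap, with 3.92 and 3.69 CPM in stromal macrophages, against 352 and 358 CPM in CD11b+ dendritic cells (log2 fold change -6.54 ± 0.28, adjusted p = 9.97e-07). H2-DMa followed with 157 and 84.7 CPM in stromal macrophages, against 2055 and 2548 CPM in CD11b+ dendritic cells. Ciita, the class II transactivator on which these genes depend, had 26.7 and 22.8 CPM in stromal macrophages, against 132 and 139 CPM in CD11b+ dendritic cells (log2 fold change -2.45 ± 0.22). The member called higher was Lgmn, an asparaginyl endopeptidase of lysosomes (725 and 584 CPM in stromal macrophages, against 127 and 123 CPM in CD11b+ dendritic cells), while Ctss, the protease that cleaves the invariant chain in dendritic cells, was lower (798 and 412 CPM in stromal macrophages, against 2195 and 1989 CPM in CD11b+ dendritic cells).

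Class II promoters carry a Y box, a sequence bound by the factor NF-Y next to the elements through which CIITA acts. The 240 bases before the RefSeq start sites of H2-Eb1 and H2-Aa (GRCm38.p6) are shown as the promoters of 2 strongly lower class II genes, 5′ to 3′ on the gene's strand, with the match to CTGATTGG in capitals.
H2-Eb1, chr17:34305627-34305866, plus strand: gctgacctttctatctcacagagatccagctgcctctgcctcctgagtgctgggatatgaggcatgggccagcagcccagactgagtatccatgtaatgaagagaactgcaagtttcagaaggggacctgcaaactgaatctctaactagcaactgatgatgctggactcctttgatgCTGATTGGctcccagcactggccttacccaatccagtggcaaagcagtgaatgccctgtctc
H2-Aa, chr17:34287824-34288063, minus strand: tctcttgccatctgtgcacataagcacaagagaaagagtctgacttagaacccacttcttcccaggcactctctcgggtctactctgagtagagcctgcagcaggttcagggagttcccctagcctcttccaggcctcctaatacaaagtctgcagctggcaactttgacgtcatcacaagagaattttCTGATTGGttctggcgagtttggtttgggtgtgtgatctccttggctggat
The match starts at position -62 of H2-Eb1 and -51 of H2-Aa, counted back from the start site. Windows of 300 bases (250 before to 50 after the start) were at hand for 10 of the 13 class II genes, and 4 of them (H2-Aa, H2-Eb1, H2-Eb2 and H2-Oa) held CTGATTGG or its reverse CCAATCAG, against 4.1% of all 32851 windows. All 4 were called lower, and so were 5 of the 6 genes whose window held no match (Ctss, H2-DMa, H2-DMb1, H2-DMb2 and H2-Ob, with Lgmn as the other), so that the match did not divide the genes by direction.

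MHC class I genes differed less. Of 15 genes 7 were called lower and none higher, with a median log2 fold change of -0.75. H2-D1, a class I heavy chain, had 1585 and 984 CPM in stromal macrophages, against 4312 and 4913 CPM in CD11b+ dendritic cells (log2 fold change -1.84 ± 0.37), though reads of H2-D1 and its paralog H2-K1 may not be fully separable. Tap1, a peptide transporter, had 30.6 and 33.7 CPM in stromal macrophages, against 139 and 134 CPM in CD11b+ dendritic cells. The chaperones Calr and Canx and the immunoproteasome subunit Psmb8 were alike, and B2m had 1865 and 1380.1 CPM in stromal macrophages, against 3118 and 2344 CPM in CD11b+ dendritic cells (adjusted p = 0.17). The 7 calls became 3 without CD11b+ dendritic cells replicate 1, 4 without its replicate 2 and 3 without stromal macrophages replicate 2. Of 16 costimulatory genes 7 were lower and 1 higher. Cd80, a ligand of CD28, had 12.1 and 7.04 CPM in stromal macrophages, against 84 and 69.7 CPM in CD11b+ dendritic cells, and Cd83 had 789 and 390.1 CPM in stromal macrophages, against 2642 and 2181 CPM in CD11b+ dendritic cells, while Cd86 had 204 and 128 CPM in stromal macrophages, against 325 and 218 CPM in CD11b+ dendritic cells, and did not pass (adjusted p = 0.143). Havcr2, the receptor TIM-3, had 2.93 and 2.25 CPM in stromal macrophages, against 20.8 and 11 CPM in CD11b+ dendritic cells.

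Complement genes were higher in the stromal macrophages for 14 of 19 members, with 3 lower and a median log2 fold change of 3.60. C6, a component of the membrane attack complex (gene ID 12274, chromosome 15, 4727067 to 4804045, GRCm38), had 151 and 107 CPM in stromal macrophages, against 0 and 0 CPM in CD11b+ dendritic cells, at least 867-fold higher against the floor of 3 counts. C1qc had 2448 and 1834 CPM in stromal macrophages, against 22.3 and 45.8 CPM in CD11b+ dendritic cells (log2 fold change 5.99 ± 0.50). Vsig4, a receptor for C3 fragments, had 35 and 24.2 CPM in stromal macrophages, against 0 and 0 CPM in CD11b+ dendritic cells, at least 199-fold higher, although DESeq2 did not call it (adjusted p = 0.068). C5ar1, the receptor for the attractant C5a, had 557 and 427 CPM in stromal macrophages, against 49.4 and 31.4 CPM in CD11b+ dendritic cells, a difference counted among chemokine receptors as well. C4b had 237 and 215 CPM in stromal macrophages, against 16 and 29.98 CPM in CD11b+ dendritic cells. The list also holds the adipocyte gene Cfd, and the summed adipocyte and fibroblast markers given above were higher in the same libraries. The 3 lower members were Cfp (properdin), Itgam and Itgax, the last pair being chains of complement receptors 3 and 4.

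Receptors of phagocytes were found on both sides, and their counts stand beside 11.6% higher and 14.5% lower over all tested genes. Of 15 tested scavenger receptors 7 were called higher and 2 lower. Msr1, which binds modified lipoproteins, had 142 and 93.7 CPM in stromal macrophages, against 3.37 and 3.05 CPM in CD11b+ dendritic cells (log2 fold change 5.18 ± 0.36), and Colec12 had 118 and 75.3 CPM in stromal macrophages, against 0.55 and 1.62 CPM in CD11b+ dendritic cells (log2 fold change 6.69 ± 0.53). Of 10 Fc receptor genes 2 were higher and 2 lower, with none lower without CD11b+ dendritic cells replicate 1, and both counts are near those shares. Fcgrt, the neonatal Fc receptor that recycles antibody, had 1550.0 and 1242 CPM in stromal macrophages, against 80.5 and 87.6 CPM in CD11b+ dendritic cells (log2 fold change 4.05 ± 0.33, adjusted p = 2.39e-05). Fcrls had 542 and 417 CPM in stromal macrophages, against 2658 and 2769 CPM in CD11b+ dendritic cells (log2 fold change -2.50 ± 0.65), and it was at most 8.26 CPM on average in the 3 other populations. Its call was lost without CD11b+ dendritic cells replicate 1 (adjusted p = 0.0655) or 2 (0.0693), without stromal macrophages replicate 2 (0.0618) and by DESeq2 (0.132). Of 16 Toll-like receptor genes and their partners 7 were higher and 2 lower (the lower count near the share over all genes, as for the scavenger receptors), with 4 higher without CD11b+ dendritic cells replicate 2 and none lower without replicate 1. Tlr1 had 46.9 and 37.8 CPM in stromal macrophages, against 4.06 and 2.87 CPM in CD11b+ dendritic cells, Tlr7 had 200.1 and 75 CPM in stromal macrophages, against 10.9 and 5.74 CPM in CD11b+ dendritic cells, and Tlr5 had 13 and 12.6 CPM in stromal macrophages, against 0.344 and 0.18 CPM in CD11b+ dendritic cells. In the efferocytosis list 5 of 15 were higher and 1, Itgav, lower (lost without CD11b+ dendritic cells replicate 1, adjusted p = 0.202, or stromal macrophages replicate 1, 0.102). The higher ones included Gas6, the bridge between dying cells and TAM receptors (959 and 865 CPM in stromal macrophages, against 35.8 and 69.3 CPM in CD11b+ dendritic cells), while Axl, one of those receptors, had 84.2 and 64.1 CPM in stromal macrophages, against 94.3 and 85.3 CPM in CD11b+ dendritic cells, and did not pass (adjusted p = 0.591). Without CD11b+ dendritic cells replicate 1 that list had 3 higher calls.

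CC chemokines showed high shared members beside members of one population. Among the 13, 5 were called higher and 3 lower. The cluster on chromosome 11 that runs from Ccl2 (start 82035577) to Ccl8 (end 82116799, GRCm38) held both kinds. Ccl2 was alike, as given above. Ccl7, an attractant of monocytes, had 1708 and 1263 CPM in stromal macrophages, against 408 and 414 CPM in CD11b+ dendritic cells (log2 fold change 1.85 ± 0.38, adjusted p = 0.00491), not called without CD11b+ dendritic cells replicate 1 (adjusted p = 0.0503). Ccl12 had 294 and 224 CPM in stromal macrophages, against 2.89 and 3.95 CPM in CD11b+ dendritic cells (log2 fold change 6.28 ± 0.44, adjusted p = 9.67e-06), and Ccl8 had 1265 and 1024 CPM in stromal macrophages, against 0.825 and 1.8 CPM in CD11b+ dendritic cells (log2 fold change 9.93 ± 0.83, adjusted p = 2.56e-05). Levels of these 4 genes in stromal macrophages were all above 200 CPM, whereas in CD11b+ dendritic cells Ccl2 and Ccl7 were above 400 CPM and Ccl8 and Ccl12 below 4 CPM. Ccl11, also called higher, was low in both, with means of 24.3 CPM in stromal macrophages and 5.27 CPM in CD11b+ dendritic cells. Ccl24, an eotaxin on chromosome 5, had 435 and 298 CPM in stromal macrophages, against 40.4 and 66.1 CPM in CD11b+ dendritic cells. Ccl3 and Ccl4, macrophage inflammatory proteins, overlapped between the populations (154 and 87.4 CPM in stromal macrophages, against 178 and 112 CPM in CD11b+ dendritic cells for Ccl3). Ccl9 had 1503 and 1286 CPM in stromal macrophages, against 2830.0 and 2030.0 CPM in CD11b+ dendritic cells, which did not pass (adjusted p = 0.0667), although DESeq2 called it (0.00912).

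The dendritic cell chemokines were lower in the stromal macrophages. Ccl22, a ligand of CCR4 that attracts regulatory T cells, had 1.6 and 0 CPM in stromal macrophages, against 161 and 65.2 CPM in CD11b+ dendritic cells (log2 fold change -7.12 ± 0.95, adjusted p = 0.000379). Ccl17, another CCR4 ligand, had 2.43 and 0.635 CPM in stromal macrophages, against 57.1 and 27.1 CPM in CD11b+ dendritic cells (log2 fold change -4.78 ± 0.65). Ccl5 was called at 3.31 and 4.91 CPM in stromal macrophages against 33.9 and 10.6 CPM in CD11b+ dendritic cells, but not without CD11b+ dendritic cells replicate 1 (adjusted p = 0.318) or stromal macrophages replicate 1 (0.0903) or 2 (0.0512), nor by limma voom (0.0922). Among CXC chemokines Cxcl1 was alike (337 and 400.2 CPM in stromal macrophages, against 355 and 299 CPM in CD11b+ dendritic cells), Pf4, the platelet factor CXCL4, was higher (937 and 808 CPM in stromal macrophages, against 5.85 and 8.8 CPM in CD11b+ dendritic cells), and Cxcl3 was lower (18.1 and 6.81 CPM in stromal macrophages, against 200.5 and 79.2 CPM in CD11b+ dendritic cells). Of 12 CXC genes 3 were higher, or 1 without CD11b+ dendritic cells replicate 1, and 1 was lower. Of 15 receptors 8 were lower and 2 higher. Cxcr4 had 47.8 and 29.5 CPM in stromal macrophages, against 217 and 159 CPM in CD11b+ dendritic cells, and the atypical receptor Ccrl2 had 134 and 142 CPM in stromal macrophages, against 634 and 641 CPM in CD11b+ dendritic cells. The lower count became 5 without CD11b+ dendritic cells replicate 1. Ccr7 and Ccr2, given above, kept their calls under each alternative that was run.

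**Figure D4:**
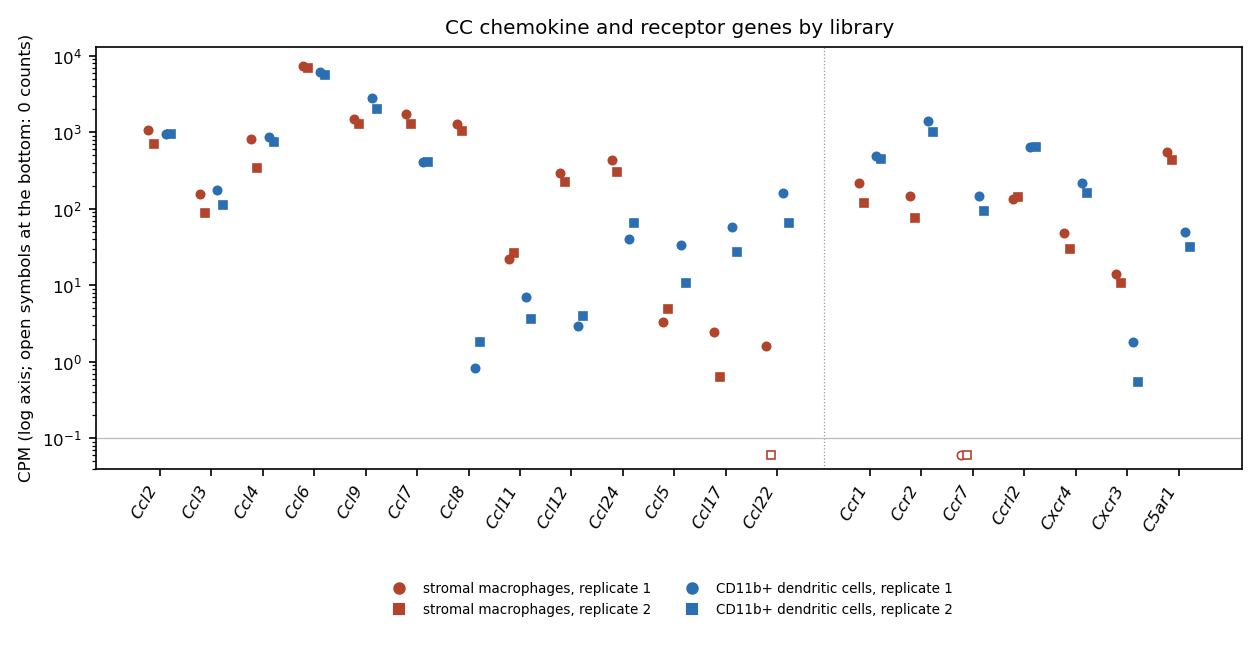
CPM per library (log axis, open symbols for 0 counts) of 13 CC chemokine genes (left) and 7 chemoattractant receptor genes (right), stromal macrophages in red left of CD11b+ dendritic cells in blue. Ccl2, Ccl3, Ccl4 and Ccl6 lie close together in both populations, Ccl8 and Ccl12 are high in the stromal macrophages, and Ccl17, Ccl22 and most receptors are higher in the CD11b+ dendritic cells.

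Cytokine genes differed in both directions. Il1b, an inflammatory interleukin, had 11.4 and 17.8 CPM in stromal macrophages, against 520.3 and 272 CPM in CD11b+ dendritic cells (log2 fold change -4.76 ± 0.44, adjusted p = 4.17e-05), and its antagonist Il1rn had 78.5 and 59.2 CPM in stromal macrophages, against 1706 and 1241 CPM in CD11b+ dendritic cells (log2 fold change -4.42 ± 0.52, adjusted p = 0.000169). Il12b, the shared subunit of interleukins 12 and 23, had 0 and 0 CPM in stromal macrophages, against 11.3 and 3.59 CPM in CD11b+ dendritic cells, at least 108-fold lower. Il33, an alarmin of the interleukin 1 family, was higher, with 18.5 and 20.9 CPM in stromal macrophages, against 3.92 and 3.41 CPM in CD11b+ dendritic cells (log2 fold change 2.42 ± 0.43, adjusted p = 0.00213). In all, 5 of 17 cytokine genes were lower and 3 higher. Growth factors had 6 of 17 higher and 4 lower. Igf1, the insulin-like growth factor that acts on mammary epithelium, had 428 and 254 CPM in stromal macrophages, against 3.51 and 2.15 CPM in CD11b+ dendritic cells (log2 fold change 6.84 ± 0.47, adjusted p = 8.66e-06). Pdgfc had 101 and 61.8 CPM in stromal macrophages, against 5.36 and 7 CPM in CD11b+ dendritic cells, while Pdgfb had 1.38 and 0.808 CPM in stromal macrophages, against 8.6 and 7.72 CPM in CD11b+ dendritic cells. Fibroblasts transcribe Igf1 and Pdgfc as well, and the summed fibroblast markers given above were higher in the same libraries, their part not tested. Grn, the precursor of granulins, was alike at 1158 and 794 CPM in stromal macrophages, against 957 and 1112 CPM in CD11b+ dendritic cells.

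Genes of alternative activation, the response of macrophages to interleukins 4 and 13, had more members lower than higher. Of 12 tested, 1 was higher (Clec10a) and 5 were lower (3 without either library of the CD11b+ dendritic cells or without stromal macrophages replicate 2), with a median log2 fold change of -0.64. Ear2, Fn1 and Pdcd1lg2 were lower, the last with 0 and 0 CPM in stromal macrophages, against 3.51 and 1.44 CPM in CD11b+ dendritic cells, at least 34.7-fold. The other lower calls, Il4ra and Socs1, were lost without CD11b+ dendritic cells replicate 1 (adjusted p = 0.208 and 0.313). Arg1, arginase 1, was at most 3.71 CPM in each of the 4 libraries, beside the high levels of Retnla and Mrc1 in both populations.

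Clotting and eicosanoid genes moved in both directions. Factor X (F10) had 0.883 and 0 CPM in stromal macrophages, against 75.3 and 75.2 CPM in CD11b+ dendritic cells, and factor VII (F7) had 0.276 and 0.0577 CPM in stromal macrophages, against 10.3 and 15.4 CPM in CD11b+ dendritic cells. Plaur, the receptor of the plasminogen activator urokinase, had 72.6 and 67.6 CPM in stromal macrophages, against 2163 and 2334 CPM in CD11b+ dendritic cells (log2 fold change -5.00 ± 0.28, adjusted p = 4.75e-06). Mmp9, a gelatinase, was higher at 71 and 75.6 CPM in stromal macrophages, against 0.963 and 2.33 CPM in CD11b+ dendritic cells. Of 19 genes of clotting and matrix 6 were higher and 6 lower, and the higher count was 2 and 3 without replicates 1 and 2 of the CD11b+ dendritic cells. Among 12 eicosanoid genes, 3 were higher and 5 lower. Hpgds, the prostaglandin D2 synthase of haematopoietic cells, had 208 and 114 CPM in stromal macrophages, against 2.13 and 1.62 CPM in CD11b+ dendritic cells (log2 fold change 6.37 ± 0.53, adjusted p = 2.5e-05). Genes of the leukotriene pathway differed in both directions. Ltc4s, which makes leukotriene C4, had 102.78 and 81.3 CPM in stromal macrophages, against 1.93 and 4.67 CPM in CD11b+ dendritic cells, and Alox5, the first enzyme, had 87.9 and 106 CPM in stromal macrophages, against 24.7 and 35.5 CPM in CD11b+ dendritic cells. Alox5ap, the partner protein of that enzyme, was lower with 267 and 220.1 CPM in stromal macrophages, against 588 and 629.9 CPM in CD11b+ dendritic cells, though not without CD11b+ dendritic cells replicate 2 (adjusted p = 0.0511), and Lta4h, which makes leukotriene B4, had 69 and 68.3 CPM in stromal macrophages, against 221 and 199 CPM in CD11b+ dendritic cells. Ltb4r1, the leukotriene B4 receptor, had 1.66 and 1.21 CPM in stromal macrophages, against 197 and 231 CPM in CD11b+ dendritic cells (log2 fold change -7.21 ± 0.50, adjusted p = 8.8e-06). The 5 lower calls became 3 without CD11b+ dendritic cells replicate 1. Mast cells transcribe Hpgds, Ltc4s and Alox5 as well, and the summed mast cell markers given above were higher in the same libraries, their part not tested.

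Genes of iron handling were higher for 7 of 13 tested members and lower for 1, with a median log2 fold change of 1.24. Slc40a1, the iron exporter ferroportin, had 67.4 and 55.2 CPM in stromal macrophages, against 0.275 and 0.898 CPM in CD11b+ dendritic cells (log2 fold change 6.996 ± 0.48, adjusted p = 8.66e-06). Blvrb, biliverdin reductase B, had 461 and 309 CPM in stromal macrophages, against 24.7 and 35.7 CPM in CD11b+ dendritic cells. Trf, the plasma iron carrier transferrin, had 2800.4 and 2291 CPM in stromal macrophages, against 387 and 455 CPM in CD11b+ dendritic cells, and its receptor Tfrc had 150.4 and 84.3 CPM in stromal macrophages, against 23.4 and 12.4 CPM in CD11b+ dendritic cells. Hmox1, which breaks down heme, had 2365 and 1335 CPM in stromal macrophages, against 814 and 748 CPM in CD11b+ dendritic cells, and did not pass in this fit (adjusted p = 0.0506), although DESeq2 (0.0159) and other settings called it. The heme transporter Slc48a1 was the member called lower (117 and 131 CPM in stromal macrophages, against 277 and 281 CPM in CD11b+ dendritic cells). Of 17 genes of lipid handling 5 were higher and 4 lower, and the higher count was 2 without either library of the CD11b+ dendritic cells. Apoe, the apolipoprotein E, had 17898 and 9761 CPM in stromal macrophages, against 115 and 154 CPM in CD11b+ dendritic cells (log2 fold change 6.68 ± 0.63, adjusted p = 4.85e-05) and ranked second per kilobase among nuclear protein-coding genes of the stromal macrophages and 753rd in the CD11b+ dendritic cells. Trem2, a lipid-sensing receptor, had 70.1 and 50.1 CPM in stromal macrophages, against 0.688 and 0.539 CPM in CD11b+ dendritic cells. Lpl, the lipoprotein lipase, went the other way with 169.8 and 99.1 CPM in stromal macrophages, against 1268 and 904 CPM in CD11b+ dendritic cells (log2 fold change -3.01 ± 0.45), as did the cholesterol exporter Abcg1 (16.5 and 13.5 CPM in stromal macrophages, against 86.6 and 70.4 CPM in CD11b+ dendritic cells). Of 24 lysosome genes 16 did not pass, 5 were higher (8 without stromal macrophages replicate 2) and 3 lower, and 6 were alike. Asah1 and Lipa, which cleave ceramide and cholesteryl esters, were among the alike ones (255 and 197 CPM in stromal macrophages, against 211 and 194 CPM in CD11b+ dendritic cells for Lipa). Psap, the precursor of saposins, was lower at 771 and 737 CPM in stromal macrophages, against 3623 and 4004 CPM in CD11b+ dendritic cells.

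Interferon-responsive genes were higher for 11 of 20 members, none were lower, and the median log2 fold change was 1.15. Ifit3, an antiviral effector, had 295 and 325 CPM in stromal macrophages, against 14.3 and 14.9 CPM in CD11b+ dendritic cells (log2 fold change 4.41 ± 0.27, adjusted p = 7.51e-06). Irf7, a transcription factor of the interferon loop, had 514 and 582 CPM in stromal macrophages, against 68.8 and 85.3 CPM in CD11b+ dendritic cells (log2 fold change 2.83 ± 0.27, adjusted p = 5.37e-05). Ifit1 had 594 and 445 CPM in stromal macrophages, against 99 and 60.1 CPM in CD11b+ dendritic cells (log2 fold change 2.70 ± 0.39). Cxcl10, an interferon-induced chemokine, had 378 and 303 CPM in stromal macrophages, against 715 and 349 CPM in CD11b+ dendritic cells, with overlapping libraries and no call (adjusted p = 0.231).

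Interferon-stimulated promoters often hold the core of the interferon-stimulated response element, 2 GAAA blocks spaced by 2 bases, which STAT and IRF factors read. The 240 bases before the start sites of Ifit1, which was called higher, and Cxcl10, which was not, are shown (RefSeq, GRCm38.p6, 5′ to 3′ on the gene's strand) with matches to that core on either strand in capitals.
Ifit1, chr19:34640649-34640888, plus strand: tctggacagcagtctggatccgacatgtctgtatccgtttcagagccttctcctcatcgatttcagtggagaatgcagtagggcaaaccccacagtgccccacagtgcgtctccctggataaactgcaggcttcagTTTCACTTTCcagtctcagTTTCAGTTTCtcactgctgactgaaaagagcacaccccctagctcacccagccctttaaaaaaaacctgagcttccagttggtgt
Cxcl10, chr5:92348890-92349129, minus strand: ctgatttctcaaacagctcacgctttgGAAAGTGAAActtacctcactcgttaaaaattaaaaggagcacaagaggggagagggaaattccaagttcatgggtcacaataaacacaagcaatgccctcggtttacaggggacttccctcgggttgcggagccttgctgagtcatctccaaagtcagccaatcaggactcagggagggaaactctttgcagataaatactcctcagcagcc
Ifit1 has 2 matches, which start at positions -104 and -85 from the start site, and Cxcl10 has 1 at -213. Among the 14 members with a 300-base window, 9 held the motif on either strand, against 3.44% of all windows. The motif stood in windows of the called members Ifit1, Ifit3 and Rsad2. It also stood in those of the uncalled members Bst2, Cxcl10, Isg15, Oas1a, Oas3 and Stat2. The called members Ifi44, Ifit2, Irf7 and Oasl2 and the uncalled Oasl1 held no match. The match therefore did not mark the called members.

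Cell cycle genes were lower in the stromal macrophages for 19 of 20 members, with a median log2 fold change of -2.90. Ube2c, a ubiquitin enzyme of mitosis, had 4.53 and 10.3 CPM in stromal macrophages, against 153 and 149 CPM in CD11b+ dendritic cells (log2 fold change -4.35 ± 0.42, adjusted p = 5.37e-05). Ccna2, cyclin A2, had 3.81 and 4.68 CPM in stromal macrophages, against 83.7 and 74.3 CPM in CD11b+ dendritic cells (log2 fold change -4.22 ± 0.30, adjusted p = 1.07e-05). Both genes were above 70 CPM in each library of the CD11b+ dendritic cells and under 11 CPM in each stromal macrophage library. Genes of the cytoskeleton and the S100 family were lower in 11 of 13 tested members. Lsp1, an actin-binding protein of leukocytes, had 233 and 140.0 CPM in stromal macrophages, against 2522 and 2499 CPM in CD11b+ dendritic cells (log2 fold change -3.75 ± 0.40, adjusted p = 0.000108), and S100a4 had 48 and 40.5 CPM in stromal macrophages, against 529 and 529 CPM in CD11b+ dendritic cells (log2 fold change -3.58 ± 0.29, adjusted p = 2.21e-05). Lgals3, galectin 3, had 647 and 482 CPM in stromal macrophages, against 3100.4 and 3064 CPM in CD11b+ dendritic cells. Integrin and adhesion genes were lower for 12 of 19 members and higher for 2, Itga9 (14.2 and 18.6 CPM in stromal macrophages, against 2.2 and 2.33 CPM in CD11b+ dendritic cells) and Itgb5, the last not called without CD11b+ dendritic cells replicate 1 (adjusted p = 0.261) or 2 (0.0659) or stromal macrophages replicate 2 (0.123). Itgb7, a gut-homing integrin chain, had 7.95 and 10.5 CPM in stromal macrophages, against 303 and 265 CPM in CD11b+ dendritic cells, and Itgal, the α chain of LFA-1, had 1.93 and 3.98 CPM in stromal macrophages, against 28.7 and 18 CPM in CD11b+ dendritic cells.

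Early response genes, which are induced within minutes of a stimulus and during tissue digestion, were called higher for 8 of 17 members and lower for none. Egr1 had 6389.7 and 4793 CPM in stromal macrophages, against 589.7 and 549 CPM in CD11b+ dendritic cells (log2 fold change 3.30 ± 0.40, adjusted p = 0.000196), and Dnajb1, a heat shock co-chaperone, had 577 and 361 CPM in stromal macrophages, against 149 and 125 CPM in CD11b+ dendritic cells. Junb and Jund were alike. The 8 calls became 3 and 2 without replicates 1 and 2 of the CD11b+ dendritic cells and 4 without stromal macrophages replicate 1. The sources used here give no dissociation or sorting times, and the part of handling was not tested.

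Transcription factors of myeloid cells followed both directions, with 7 of 26 higher, 10 lower and 9 not passing. Tcf4, which is needed by plasmacytoid dendritic cells, had 265 and 194 CPM in stromal macrophages, against 26.5 and 22.1 CPM in CD11b+ dendritic cells (log2 fold change 3.23 ± 0.27, adjusted p = 2.56e-05), and Irf8 had 133 and 91.2 CPM in stromal macrophages, against 19.9 and 15.3 CPM in CD11b+ dendritic cells (log2 fold change 2.66 ± 0.34, adjusted p = 0.000289). Markers of plasmacytoid dendritic cells were called higher for 3 of 6 genes (Tcf4, Siglech and Cox6a2), and Bst2, Ly6d and Ccr9 were not called. The markers summed to 629 and 507 CPM in the stromal macrophages, against 197 and 316 CPM in the CD11b+ dendritic cells. In the ductal macrophages the sums were 625 and 726 CPM. Siglech averaged 70.3 CPM in the stromal macrophages and 204 CPM in the ductal macrophages. The part of plasmacytoid dendritic cells was not tested. Spic, a factor of iron-recycling macrophages, had 22.2 and 13.7 CPM in stromal macrophages, against 4.61 and 4.49 CPM in CD11b+ dendritic cells. On the other side, Batf3 had 28.6 and 20.3 CPM in stromal macrophages, against 108 and 153 CPM in CD11b+ dendritic cells (log2 fold change -2.41 ± 0.28, adjusted p = 0.000172), although it is best known from cDC1. Bhlhe40 had 27.1 and 102 CPM in stromal macrophages, against 474 and 388 CPM in CD11b+ dendritic cells, Irf5 had 234 and 199 CPM in stromal macrophages, against 586 and 651 CPM in CD11b+ dendritic cells, and Nfil3 had 119 and 110.3 CPM in stromal macrophages, against 388 and 337 CPM in CD11b+ dendritic cells. Klf2 and Klf4 were alike, and Spi1, which encodes PU.1, had 246 and 206 CPM in stromal macrophages, against 299 and 372 CPM in CD11b+ dendritic cells (adjusted p = 0.111). Irf4, a factor of cDC2, had 28 and 34.7 CPM in stromal macrophages, against 89.2 and 55.5 CPM in CD11b+ dendritic cells, which did not pass (adjusted p = 0.148), while the fit of the 4 libraries alone (0.0299) and the fit with no filter on low counts (0.0495) called it. Without CD11b+ dendritic cells replicate 1 the counts were 4 higher and 6 lower, and without its replicate 2 they were 4 and 9.

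Ranked by fold change among genes of at least 30 CPM, the 15 genes highest in the stromal macrophages were C6, Cd209g, Ccl8, Cd209f, Lyve1, Ms4a14, Npl, Cma1, Ms4a7, Cbr2, Folr2, Fcna, Ms4a4a, Siglech and Pla2g2d. Of these Ms4a7 and Ms4a4a, membrane proteins of macrophages, were higher still in the ductal macrophages (means of 1115 and 776 CPM), whereas Cd209f, Ccl8 and Fcna, a ficolin, were at most 2.14 CPM on average in each of the 3 other populations. Npl, an enzyme that cleaves sialic acid, had 164 and 177 CPM in stromal macrophages, against 0.481 and 0.18 CPM in CD11b+ dendritic cells. Cma1, a protease of mast cells, had 61.7 and 20.7 CPM in stromal macrophages, against 0 and 0.359 CPM in CD11b+ dendritic cells, and was higher together with the mast cell markers given above. Its call was lost without CD11b+ dendritic cells replicate 1 (adjusted p = 0.12) or 2 (0.0594) and by DESeq2 (0.0827).

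The 15 genes lowest in the stromal macrophages were Ccr7, Itgax, Il27ra, Ear2, Spink2, Ptger2, Haao, Il7r, F10, Cd244a, Ltb4r1, Ccl22, P2ry10, Ramp3 and Slc27a3. Ear2, a ribonuclease of the eosinophil-associated family (gene ID 13587, chromosome 14, 44102654 to 44103531, GRCm38), had 11.2 and 6.81 CPM in stromal macrophages, against 2269 and 2430.3 CPM in CD11b+ dendritic cells (log2 fold change -8.02 ± 0.47, adjusted p = 6.01e-06), and its means in the 3 other populations were 6.61, 18.4 and 10.8 CPM. It has close paralogs, and summed markers of eosinophils were 1.27 and 2.14 CPM in the stromal macrophages and 24 and 11.3 CPM in the CD11b+ dendritic cells. In the CD11b+ dendritic cells Siglecf averaged 10.8 CPM and Ear1, of the same family as Ear2, 5.61 CPM. Ccr3 and Il5ra averaged 0.697 and 0.516 CPM there, and Epx and Prg2 had 0 and 1 counts over the 4 libraries. The part of eosinophils was not tested. Il27ra, the receptor of interleukin 27, had 0.11 and 0.289 CPM in stromal macrophages, against 74.8 and 94.6 CPM in CD11b+ dendritic cells, and at most 5.99 CPM on average elsewhere. Il7r, the interleukin 7 receptor, had 1.55 and 1.67 CPM in stromal macrophages, against 385 and 185 CPM in CD11b+ dendritic cells. Ptger2, a prostaglandin E2 receptor, had 0 and 0.346 CPM in stromal macrophages, against 47.8 and 34.5 CPM in CD11b+ dendritic cells. None of these 15 calls was lost under any alternative that was run.

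**Figure D5:**
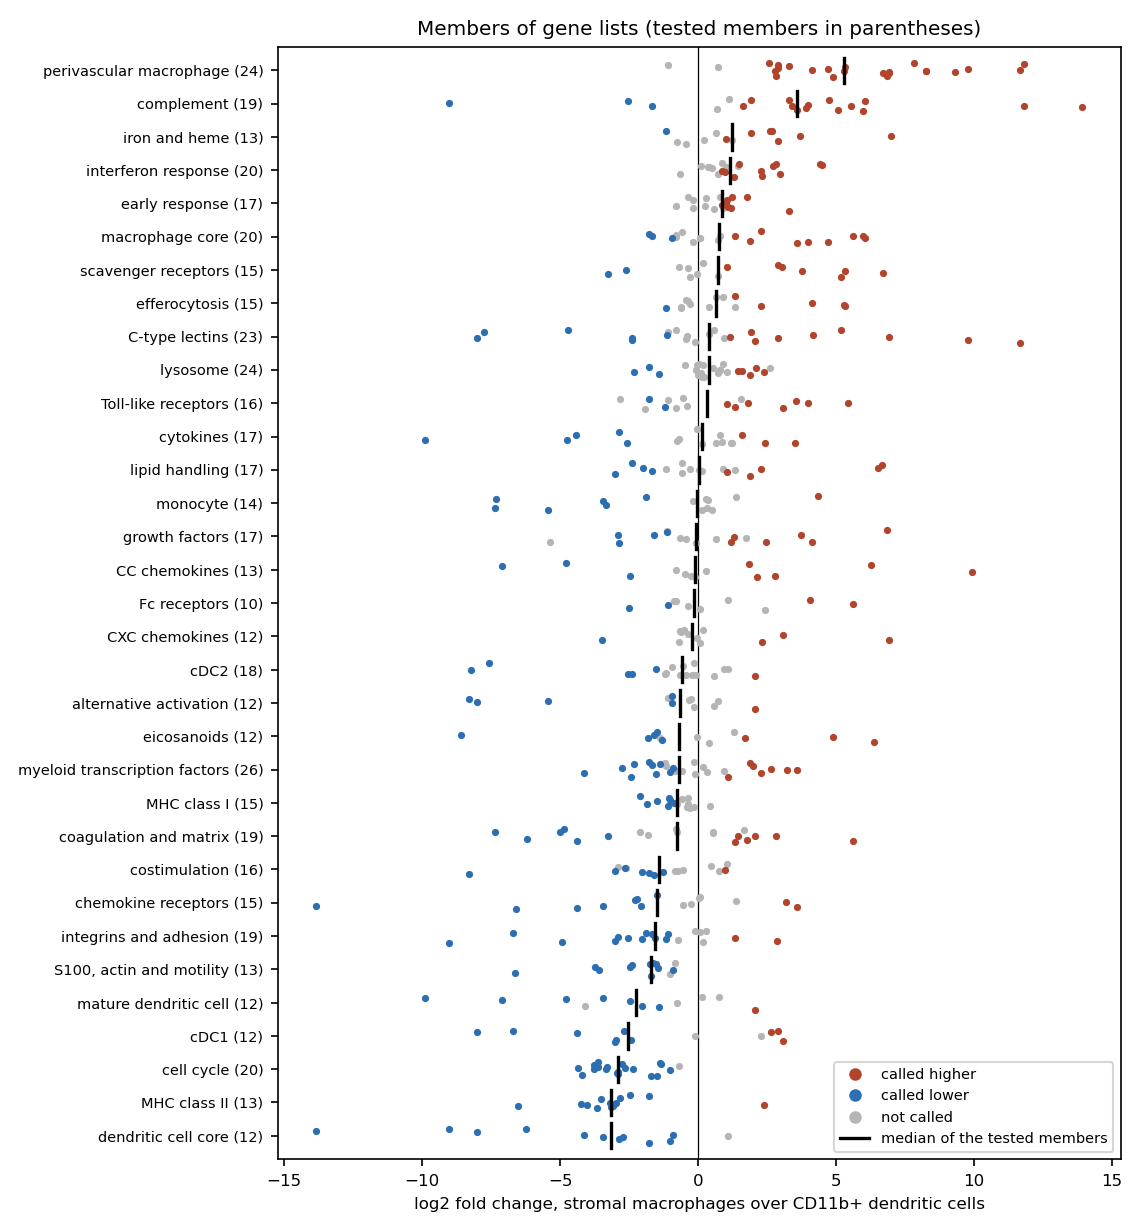
Log2 fold changes of the tested members of 33 gene lists (x axis, stromal macrophages over CD11b+ dendritic cells), 1 point per gene, red where called higher, blue where called lower and grey where not called, with the median of each list as a black bar. Lists run between a median of 5.31 for perivascular macrophage genes at the top and -3.15 for dendritic cell core genes at the bottom, and the points of genes without a count in 1 population are fitted values.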

How the data were processed

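RNA of sorted mammary gland cells was sequenced as 80-bp pairs, per the labels. The authors deposited counts per gene made with featureCounts on mm10, per the submitters' processing notes, and the sources used here give no aligner, strand setting or treatment of multiply mapped reads. Of 27179 genes, 25275 were named by RefSeq (GRCm38.p6) and 15681 passed edgeR's filterByExpr (minimum count 10). Counts of all 10 libraries were fitted with edgeR 4.0.16 (TMM, quasi-likelihood) and stromal macrophages were compared with CD11b+ dendritic cells, with Benjamini-Hochberg adjustment over all tested genes. CPM and RPKM were computed from these counts. The p-values measure the spread between libraries labelled as biological replicates, and 3 counts equal 0.166 to 0.539 CPM. Genes were named as the 15 largest called differences per direction at 30 CPM or more, the 15 highest alike genes and members of gene lists. Pltp, Cd86, Cfd, Cfp, Ifit1 and further interferon-responsive genes with a promoter window were named after their values were seen. The members and lists were chosen with earlier results of these data known. Alternatives included DESeq2 1.42.0, limma voom 3.58.1 and leaving out each replicate. The fit was also run on simulated counts that gave all genes the same spread, so that run does not show how the calls hold in these data. A few genes are not reported here.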

Additional observations from a re-analysis of the deposited data

How the results depend on the processing

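Leaving out 1 of the 4 libraries gave 819 to 1670 genes higher and 1235 to 2171 lower in the stromal macrophages, and 234 to 280 genes alike. A population left with 1 library is assumed to vary like the others in these fits. The other settings (DESeq2, limma voom, other size factors, no filter, thinned counts, mitochondrial genes left out, the 4 libraries alone and a replicate block) gave 1435 to 2032 higher, 1847 to 2740 lower and 383 to 440 alike. The number of alike genes followed the rule itself, with 1029 genes at 50 CPM and 36 for an interval within 1.5-fold. With the replicate number as a block 1606 genes were higher, 2022 lower and 383 alike, but the samples share only a number (the replicate differences of both populations correlated at 0.118 across genes). Of 317 named genes, 42 lost their call without CD11b+ dendritic cells replicate 1, 29 without its replicate 2, 13 without stromal macrophages replicate 1 and 20 without its replicate 2. Of 66 list counts these leave-outs moved 19, 11, 5 and 9. The log2 fold change of Ltb ran between -6.29 (without stromal macrophages replicate 1, called in that fit) and 2.07 over the leave-outs. Ltb had 50 and 0 counts in the stromal macrophages, which therefore held no count without replicate 1, and 12 and 2 in the CD11b+ dendritic cells. The value of Ccr9 ran between -6.67 (without stromal macrophages replicate 2, called in that fit) and 6.73. Ccr9 had 50 counts over the 4 libraries, and the cause of its range was not tested. Sign changes of values called in neither fit are not counted as reversals.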
